A study of Homo sapiens with 6 samples.

Results

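The regulators of apoptosis examined here were 38 human genes of the BCL2 family, the caspases, the apoptosome, the inhibitors of apoptosis and the death receptors. A gene was included if its symbol stood on this list and a probe set of the array was annotated to that symbol alone. This held for 37 of the 38 genes, of 19775 genes read in all, through 125 of the array's 54675 probe sets. BBC3 had no such probe set and was not read here.

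The cells were HMLE, human mammary epithelial cells that have been immortalised, and their RNA was profiled with 6 Affymetrix arrays of the U133 Plus type. The Twist line carried a pBabe-Twist retrovirus, which delivers a factor known to turn epithelial cells mesenchymal, and the control line carried a pBabe-shGFP retrovirus, a hairpin against a jellyfish protein that the cells lack. In each line, cells were given either Cmp302, a small molecule for which the labels give a code name and no structure, at each of 2 levels, or DMSO, its solvent. The sample titles call these levels 5 µM and 10 µM and the protocol gives 6 h, whereas the source names give 2 µM in both cases, with 4 h for the first level and 8 h for the second. The levels carry the names of the titles below, and whether they differ in dose or in time could not be settled from the labels. All 6 groups thus share the HMLE background and a retroviral infection, and the labels do not say whether a line was a pool or a clone.

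Apoptosis is a form of cell death in which proteases, the caspases, are switched on in a cascade. In the mitochondrial route the BCL2 family decides whether BAX and BAK1 open the outer mitochondrial membrane, after which cytochrome c joins APAF1 in the apoptosome and activates caspase-9. In the receptor route, FAS and the TRAIL receptors recruit FADD and caspase-8 at the cell surface, and CFLAR (also called FLIP) can hold that step back. Both routes are known to be fed by endoplasmic reticulum stress, in which ATF4 and CHOP (DDIT3) raise transcription of some BH3-only and TRAIL receptor genes in human cells.

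There was 1 array per group, and a difference between 2 arrays is therefore unreplicated. Values are log2 signals, in which a difference of 1 is 2-fold, and signals under a floor of 3.71 were set to that floor. A gene was read by its brightest probe set. In all, 4 comparisons were tested with limma over 12478 genes, and "rose", "fell" and "called" are used where the adjusted p was under 0.05. The lines were compared with the treatment as a factor. The compound was compared with DMSO in each line by taking both Cmp302 arrays of that line as treated samples, and the response was compared between the lines by their interaction. Each fit left 2 residual degrees of freedom, and the lone DMSO array of a line was assumed to vary like the others. The labels do not say that the samples came from separate cultures, so the p-values measure only the spread between these arrays. For the compound this is the spread between the 2 Cmp302 arrays of each line. For the lines it is the spread of their difference over the treatments. Both hold any effect of level or treatment beside technical spread, so a gene that responded in 1 line only has a wider spread in the test of the lines.

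Epithelial and mesenchymal markers separated the lines. The mean over 6 epithelial markers was 3.92 to 4 on the Twist-line arrays and 12.67 to 12.93 on the control-line arrays. That over 6 mesenchymal markers was 12.55 to 12.71 on the Twist-line arrays and 8.37 to 8.41 on the control-line arrays. Of 6 blood, endothelial and fat cell markers, 4 lay at the floor on every array (PTPRC, VWF, ADIPOQ and HBB) and 2 above it. These 2 moved with the line: PECAM1 had 7.64, 7.2 and 7.54 in the Twist line against 4.05, 3.82 and 3.8 in the control line, and FABP4 had 10.89, 11 and 10.62 in the Twist line against 8.18, 7.96 and 7.77 in the control line (differences of 3.57 and 2.86). Their part in the line differences below was not tested. Control probe sets for the 3′ end and the middle of GAPDH and ACTB were compared as a gauge of RNA integrity. Their mean contrast, 3′ minus middle, was 0.95 on the Twist DMSO array, 0.36 and 0.45 on the Twist arrays at 5 and 10 µM, 0.28 on the control DMSO array, and 0.45 and 0.84 on the control arrays at 5 and 10 µM. The Twist DMSO array, to which both Cmp302 arrays of that line are compared, had the highest value. The part of this contrast in the Twist-line results was not tested. In bulk RNA, fewer cells of a type and less RNA per cell cannot be told apart.

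Of the 37 genes read, 35 exceeded the floor on any array, 33 exceeded it on all 6, and 34 passed the filter of 2 arrays above the floor and were tested. BMF, a BH3-only protein, and the decoy receptor TNFRSF10C lay at the floor on every array. BCL2A1 lay above it only on the control DMSO array, at 3.94, and was not tested. HRK, a BH3-only protein, lay at the floor on the 3 Twist arrays. Of all 19775 genes read, 12730 exceeded the floor on any array, 10787 exceeded it on all 6, and 12478 were tested. The floor is the median of all values, and some of the 33 genes, such as BCL2 in the control line and CASP10 in the Twist line, lay just above it.

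**Figure D1:**
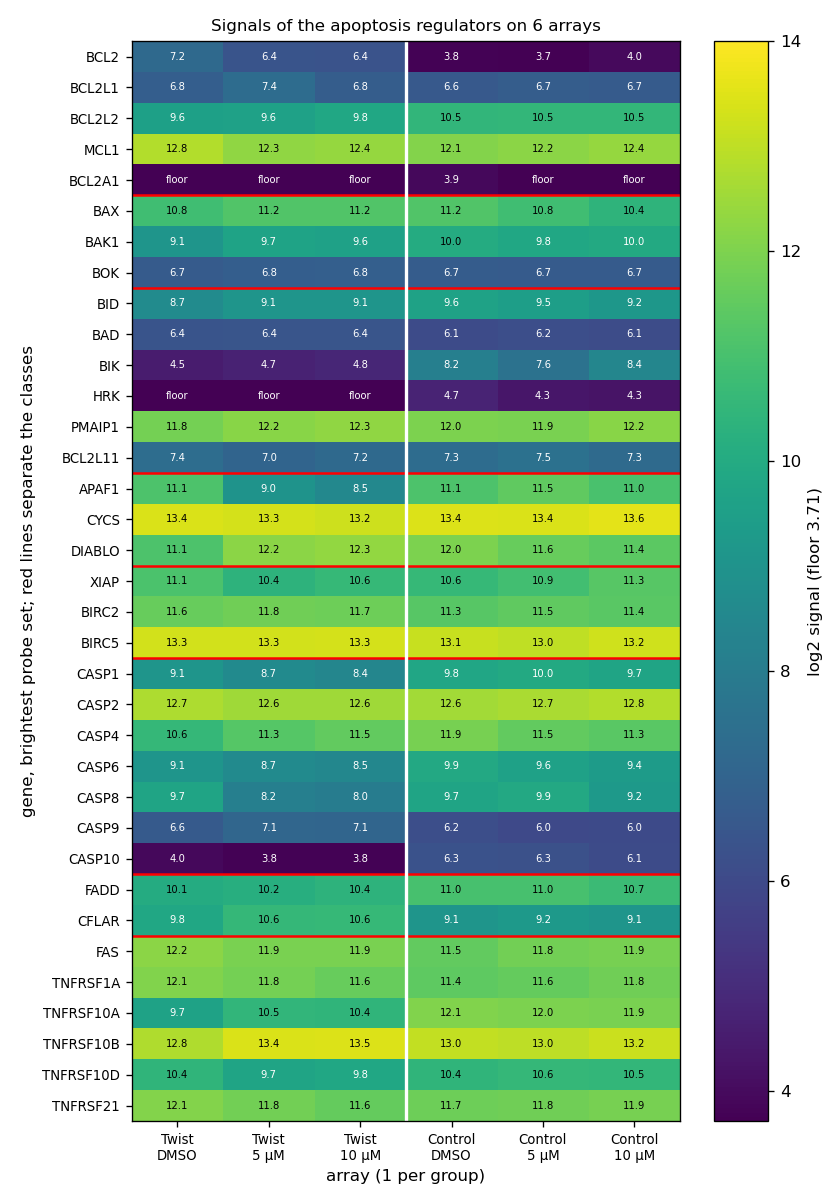
Log2 signals of the 35 genes above the floor on any of the 6 arrays, grouped by class, with the Twist line on the left and the control line on the right; each cell is 1 array and "floor" marks signals at 3.71. BCL2 is brighter in the Twist line, BIK, CASP10 and TNFRSF10A are brighter in the control line, and APAF1 and CASP8 are dimmest on the Twist arrays with Cmp302.

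The comparison of the lines asked how the regulators differ between the Twist and the control state. Over the 3 treatments 10 of the 34 tested genes differed: 3 were higher in the Twist line (BCL2, CFLAR and CASP9), against 13.7% of all tested genes, and 7 were lower (CASP10, BIK, TNFRSF10A, HRK, CASP1, CASP6 and BCL2L2), against 14.9%. HRK, among the 7, passed the filter on low signals only through the control line, where it is high, so its call does not support a difference. The median difference over the 34 genes was -0.13, and over all tested genes -0.01. With the floor raised to the 65th percentile BCL2 and CASP10 were no longer called (0.63 and -0.19, adjusted p = 0.104 and 0.386), and with the median over a gene's probe sets BCL2L2, CASP1, CASP6, CASP9, CFLAR and HRK were not, while BCL2 and CASP10 did not pass the filter and were not tested. With no filter on low signals HRK, CASP1, CASP9, CFLAR and TNFRSF10A (adjusted p = 0.0619) lost their calls. Without the pair of arrays at 5 µM, or without that at 10 µM, BCL2L2, CASP1, CASP6, CASP9 and CFLAR did.

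Among the anti-apoptotic proteins, which bind and restrain BAX and BAK1, the lines differed most in BCL2 itself. BCL2 had signals of 7.24, 6.38 and 6.36 in the Twist line at DMSO, 5 µM and 10 µM, against 3.77, 3.74 and 3.99 in the control line. By this probe set, 203685_at, the lines did not overlap, and the control-line signals lay close to the floor. The dim probe set 207004_at read 3.90, 4.24 and 3.64 in the Twist line and 3.95, 4.05 and 4.01 in the control line. Its difference of -0.05 was not called (adjusted p = 0.798 from limma, tested by itself). The difference over the treatments by 203685_at was 2.82 ± 0.242 (SE) on the log2 scale, with an adjusted p of 0.00072 from limma. BCL2L2 (BCL-w) was lower, with 9.57, 9.60 and 9.82 in the Twist line against 10.50, 10.53 and 10.54 in the control line. Its difference was -0.86 ± 0.192 (adjusted p = 0.0245). BCL2L1 (BCL-xL) and MCL1 had differences of 0.31 and 0.26 and were not called.

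The BH3-only proteins, which sense damage and set BAX and BAK1 free, held 2 of the 7 genes called lower, BIK and HRK. BIK had 4.49, 4.71 and 4.81 in the Twist line, against 8.15, 7.57 and 8.44 in the control line. The lines did not overlap, and under DMSO the Twist signal was 12.6-fold lower. The fitted difference was -3.39 ± 0.23, with an adjusted p of 0.000299 from limma. HRK was read at the floor on the 3 Twist arrays and at 4.73, 4.34 and 4.26 in the control line, so its fitted difference of -0.73 is measured against the floor and no test of it is given. BID, which carries the signal of caspase-8 to mitochondria, had a difference of -0.49 by its brightest probe set and was not called, although its other 2 probe sets were called lower when each was tested by itself (-1.48 and -0.91, adjusted p = 0.00788 and 0.0283). The genes BAD, PMAIP1 and BCL2L11 had differences between -0.17 and 0.28.

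Of the 7 tested caspases, 3 were lower in the Twist line, against 14.9% of all tested genes, and 1 was higher, against 13.7%. CASP10, an initiator of the receptor route that is closely related to caspase-8, had 3.95, 3.76 and 3.76 in the Twist line, just above the floor, against 6.30, 6.28 and 6.06 in the control line. Its difference of -2.39 ± 0.13 had an adjusted p of 0.00013 from limma, the lowest among the 34 genes. CASP1, an inflammatory caspase, had 9.07, 8.65 and 8.44 in the Twist line against 9.79, 9.98 and 9.70 in the control line (-1.11 ± 0.23, adjusted p = 0.0194). CASP6, an executioner, had 9.07, 8.65 and 8.46 in the Twist line and 9.93, 9.59 and 9.37 in the control line (-0.91 ± 0.197, adjusted p = 0.0227). CASP9, the caspase of the apoptosome, had 6.63, 7.09 and 7.06 in the Twist line and 6.18, 5.98 and 6.01 in the control line (0.87 ± 0.212, adjusted p = 0.033). By the probe sets read here the lines did not overlap, but these genes were called on the same arrays, so this adds no support. The other probe set of CASP6, 211464_x_at, did overlap, with 8.75, 7.99 and 7.65 in the Twist line and 8.43, 8.68 and 8.79 in the control line. Its difference of -0.51 was not called (adjusted p = 0.328 from limma, tested by itself). The dimmer 210775_x_at of CASP9 read 4.10, 4.41 and 4.24 in the Twist line and 4.08, 3.81 and 3.75 in the control line. That probe set differed by 0.37 and was not called (adjusted p = 0.123 from limma, tested by itself).

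In the receptor route, the TRAIL receptor TNFRSF10A was lower and the inhibitor CFLAR higher in the Twist line. TNFRSF10A had 9.65, 10.50 and 10.45 in the Twist line, against 12.05, 11.97 and 11.91 in the control line. The difference was -1.78 ± 0.258 (adjusted p = 0.00545) over the treatments, and it was wider under DMSO, at -2.40, than at 5 and 10 µM, at -1.48 and -1.46. CFLAR had 9.85, 10.55 and 10.62 in the Twist line against 9.08, 9.22 and 9.08 in the control line, a difference of 1.21 ± 0.237 (adjusted p = 0.0158). The 13 probe sets of CFLAR above the floor did not share this size or sign: under DMSO they differed by -0.44 to 0.88. Without probe sets of the suffixes _x_at and _s_at, which are explained below, CFLAR differed by 0.6 and was not called (adjusted p = 0.0539 from limma). The other TRAIL death receptor, TNFRSF10B, had a difference of 0.15 and was not called. FADD, the adaptor shared by FAS and the TRAIL receptors, had 10.05, 10.15 and 10.36 in the Twist line and 11.02, 11.00 and 10.71 in the control line, a difference of -0.73 that missed the threshold (adjusted p = 0.06).

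CFLAR, CASP10 and CASP8 lie close together on chromosome 2 in RefSeq's annotation of GRCh38.p14. CFLAR lies at chr2:201116164-201176687, CASP10 at chr2:201183141-201229406 and CASP8 at chr2:201233463-201287711. They did not all share a direction: over the treatments CFLAR was higher and CASP10 lower in the Twist line. CASP8 had a fitted difference of -1, the sign of CASP10, and was not called (adjusted p = 0.108 from limma). Its DMSO signals were 9.70 in the Twist line and 9.73 in the control line, and its differences with Cmp302 were -1.77 and -1.21.

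**Figure D2:**
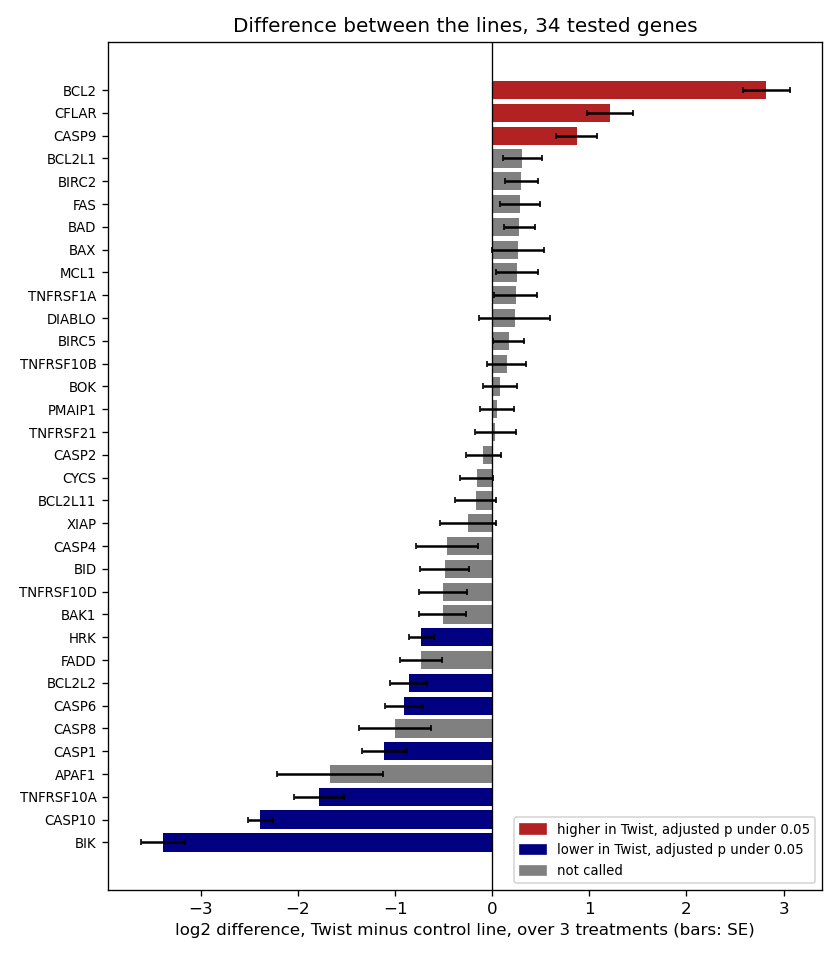
Fitted log2 difference of the Twist line minus the control line over 3 treatments for the 34 tested genes; bars are fitted values, whiskers are standard errors, and colour marks the calls at an adjusted p under 0.05. BCL2 stands at 2.82 on the higher side, and BIK at -3.39 and CASP10 at -2.39 on the lower side.

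Between single arrays, 1 gene was past 2-fold higher in the Twist line under DMSO and 5 were lower, of 35 genes measured, where 11.9% and 13.5% of all genes were. At 5 µM there were 3 higher and 6 lower of 34, against 12.1% and 12.6%, and at 10 µM again 3 and 6 of 34, against 14.8% and 14.1%. APAF1 and CASP8 were past 2-fold lower in the Twist line at both Cmp302 levels only: their DMSO differences were 0.01 and -0.03. Their fitted differences over the treatments, -1.67 and -1, were not called (adjusted p = 0.0792 and 0.108).

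The next question was how the regulators responded to Cmp302 in the Twist line. Of the 34 tested genes, 6 rose (DIABLO, CASP4, TNFRSF10A, CFLAR, TNFRSF10B and BAK1), against 15.5% of all tested genes, and 5 fell (APAF1, CASP8, BCL2, TNFRSF10D and MCL1), against 17.9%. The shares among the regulators were thus near those of the whole array. The median change over the 34 genes was 0.04 and over all tested genes 0. Leaving out any 1 of the 4 Cmp302 arrays, in either line, left no regulator and no gene of the whole array called. The fit then loses 1 of its 2 residual degrees of freedom, and the cause of the lost calls was not tested. With the median over probe sets APAF1, CASP4, MCL1 and TNFRSF10D were not called and BCL2 and CASP8 did not pass the filter, and with no filter on low signals TNFRSF10A alone of the 11 was. At the unadjusted p under 0.05 with all arrays, 18 of the 34 genes and 46% of all tested genes passed in limma.

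By the brightest probe sets, APAF1 had the widest fall and DIABLO the widest rise among the regulators. APAF1, the scaffold of the apoptosome, had 11.13 under DMSO, 9.01 at 5 µM and 8.5 at 10 µM in the Twist line, and 11.12, 11.47 and 11.04 at the same treatments in the control line. The 2 Twist arrays with Cmp302 stood apart from the other 4, and at 10 µM the signal was 6.18-fold lower than under DMSO. APAF1 fell by 2.37 ± 0.277 on the log2 scale (adjusted p = 0.011), and its other probe set above the floor on any array lay at the floor on the Twist arrays and could show no change. DIABLO, a mitochondrial protein that relieves caspases of their inhibitors, moved the other way. It had 11.14, 12.23 and 12.34 in the Twist line at DMSO, 5 µM and 10 µM, and 11.96, 11.62 and 11.42 in the control line. DIABLO rose by 1.14 ± 0.135 in the Twist line (adjusted p = 0.011), where both Cmp302 arrays lay above all 4 others. CYCS, which encodes cytochrome c, changed by -0.16 and was not called.

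The anti-apoptotic genes that passed the test fell. BCL2 fell by 0.87 ± 0.168 (adjusted p = 0.0171) in the Twist line, from the signals given above, and at 10 µM it still lay 2.37 log2 units above the control line. Its dim probe set 207004_at changed by 0.08 and was not called (adjusted p = 0.859 from limma, tested by itself). MCL1, a short-lived guardian of mitochondria, had 12.82, 12.31 and 12.37 in the Twist line and 12.10, 12.21 and 12.39 in the control line. It fell by 0.48 ± 0.123 (adjusted p = 0.0342), but its 6 probe sets were split: 4 went up and 2 down at both levels, with changes at 10 µM from -0.45 to 1.24. Without probe sets of the suffixes _x_at (similar to other sequences) and _s_at (shared by several transcripts), MCL1 changed by 0.25, so its direction depends on the probe set read. BCL2L1 had 6.80, 7.36 and 6.75 in the Twist line and was not called.

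Of the pore-forming proteins, BAK1 had 9.06, 9.69 and 9.58 in the Twist line at DMSO, 5 µM and 10 µM, and 10.04, 9.83 and 9.98 in the control line. It rose by 0.57 ± 0.16 (adjusted p = 0.0431), which left it below the control line at each treatment. BAX had 10.85, 11.22 and 11.21 in the Twist line and 11.19, 10.84 and 10.42 in the control line, so that the lines changed in opposite directions, and neither change was called. BOK had changes of 0.12 and 0.17 at the 2 levels.

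No BH3-only gene was called when read by its brightest probe set, but other probe sets of PMAIP1 and BCL2L11 gave another picture. PMAIP1 (NOXA) binds MCL1 and is a known target of ATF4 and p53 in human cells. Its brightest probe set, 204286_s_at, read 11.84, 12.16 and 12.28 in the Twist line and 11.99, 11.94 and 12.18 in the control line, a change of 0.38 that was not called (adjusted p = 0.0957). The other, 204285_s_at, read 8.89, 11.09 and 11.69 in the Twist line and 10.51, 10.52 and 10.39 in the control line. By this probe set PMAIP1 was 6.96-fold higher at 10 µM than under DMSO, and in a test of each of 24611 probe sets by itself, chosen after seeing the data, the change was 2.5 ± 0.26 (adjusted p = 0.0136). The Twist DMSO array was the low one for this probe set: it lay 1.62 below the control DMSO array. The 3′ to middle contrast was 0.95 on the Twist DMSO array and 0.84 on the control array at 10 µM, which read 10.39, and the part of the contrast in this change was not tested.

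The promoter of PMAIP1 is shown because ATF4 and the NF-kB target genes rose in the same arrays. In the 250 bases upstream of its start, capitals mark matches to 2 searched motifs, a kappaB-like motif (GGG, then 3 bases of any kind, then TTCC) and the cAMP response element core TGACGT, the second on the other strand, where it reads ACGTCA.
PMAIP1, chr18:59899746-59899995, plus strand, GRCh38.p14, RefSeq: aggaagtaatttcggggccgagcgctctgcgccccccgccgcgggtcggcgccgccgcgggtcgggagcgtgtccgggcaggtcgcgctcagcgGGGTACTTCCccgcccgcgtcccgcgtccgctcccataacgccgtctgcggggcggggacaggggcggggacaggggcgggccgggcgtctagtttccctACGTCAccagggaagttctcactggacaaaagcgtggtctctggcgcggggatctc
The matches lie 156 to 147 and 56 to 51 bases upstream of the start. Both strands of every promoter were searched, and none of the motifs contains another. The search covered 35116 promoter windows, of which 50 belong to the 28 regulators with a window, as a gene can have several. TGACGT was found in 7.10% of all windows and in 6 of the 50, those of BAD, BIRC2, CYCS and PMAIP1. The kappaB-like motif was found in 5.67% of all windows and in 2 of the 50, those of CFLAR and PMAIP1. Another motif, the C/EBP-ATF composite core TGATGCAA, was found in 0.772% of all windows and in 1 of the 50, that of BCL2A1. A match describes letters in this window and does not show that a factor binds.

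BCL2L11 (BIM), a BH3-only protein that CHOP is known to induce, was read by 6 probe sets above the floor. The brightest had 7.37, 7.04 and 7.24 in the Twist line and 7.35, 7.53 and 7.27 in the control line and was not called. The dimmer 1553096_s_at read 3.70, 4.37 and 4.79 in the Twist line and 4.11, 3.90 and 3.87 in the control line, and it rose by 0.87 ± 0.188 (adjusted p = 0.0263, each probe set tested by itself). Over the 6 probe sets the change at 10 µM ranged from -0.26 to 1.23. Of the other BH3-only genes, BID had changes of 0.40 and 0.42 at the 2 levels, BIK of 0.22 and 0.32, and BAD of 0.05 and 0.05, and none was called.

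Among the caspases, CASP8 fell and CASP4 rose. CASP8, the initiator of the receptor route, had 9.70, 8.16 and 8.04 in the Twist line and 9.73, 9.92 and 9.25 in the control line. The Twist arrays with Cmp302 lay below the other 4, and CASP8 fell by 1.60 ± 0.298 (adjusted p = 0.0161). CASP4, an inflammatory caspase linked to endoplasmic reticulum stress in human cells, had 10.56, 11.28 and 11.51 in the Twist line and 11.88, 11.53 and 11.35 in the control line. It rose by 0.83 ± 0.155 (adjusted p = 0.016), so that the gap between the lines under DMSO, -1.32, was 0.16 at 10 µM. Its dim probe set 213596_at did not share this change, with 5.14, 4.88 and 5.16 in the Twist line and 4.84, 5.58 and 5.98 in the control line.

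CASP1 lies near CASP4 on chromosome 11, at chr11:105025443-105036686 and chr11:104942866-104968574 on GRCh38.p14, and it had the opposite sign. Its brightest probe set changed by -0.53 in the Twist line and was not called (adjusted p = 0.0998), but all 5 of its probe sets were lower at both levels, and 3 were called when each was tested by itself, with changes of -0.92, -1.21 and -0.78. By their brightest probe sets CASP6 had a change of -0.52 in the Twist line and -0.44 in the control line, CASP2, CASP9 and CASP10 changed by -0.18, 0.44 and -0.19 in the Twist line, and none was called. Tested by themselves, probe set 226036_x_at of CASP2 fell by 0.97 (adjusted p = 0.0165) and 211464_x_at of CASP6 by 0.93 (adjusted p = 0.0324) in the Twist line, and each was 2.14-fold lower at 10 µM than under DMSO.

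In the receptor route, both TRAIL death receptors and CFLAR rose and a decoy receptor fell. TNFRSF10A rose by 0.82 ± 0.118 (adjusted p = 0.0113) from the signals given above, which left it below the control line. TNFRSF10B (DR5), which CHOP is known to induce in human cells, had 12.79, 13.40 and 13.46 in the Twist line and 13.04, 12.96 and 13.19 in the control line. It rose by 0.64 ± 0.13 (adjusted p = 0.0193), and both Cmp302 arrays of the Twist line exceeded the other 4. The 2 dimmer probe sets of TNFRSF10B changed more widely. They read 6.04, 7.30 and 7.82, and 5.94, 7.18 and 7.98, in the Twist line, against 6.30, 6.43 and 6.20, and 6.34, 6.41 and 6.19, in the control line. Their changes were 1.52 and 1.64 (adjusted p = 0.0199 and 0.0282, each tested by itself). The direction was the same for all 3 probe sets, and the size was not.

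TNFRSF10D, a TRAIL receptor with a truncated death domain, had 10.45, 9.73 and 9.84 in the Twist line and 10.44, 10.57 and 10.54 in the control line. It fell by 0.67 ± 0.138 (adjusted p = 0.0203), and the 2 Twist arrays with Cmp302 lay below the other 4. TNFRSF21 (DR6) missed the threshold by its brightest probe set, with a change of -0.43 (adjusted p = 0.0667). Its other probe set read 12.13, 10.85 and 10.07 in the Twist line and 10.89, 11.15 and 11.10 in the control line, and fell by 1.67 ± 0.311 (adjusted p = 0.019, tested by itself). FAS had 12.22, 11.94 and 11.95 in the Twist line and 11.54, 11.81 and 11.87 in the control line and was not called, although 2 of its 5 probe sets fell when tested by themselves, by 0.68 and 0.85. TNFRSF1A, a receptor for TNF, had changes of -0.22 and -0.45 at the 2 levels and was not called.

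CFLAR rose by 0.73 ± 0.155 (adjusted p = 0.0213), and the 3 Twist signals lay above the 3 control-line signals throughout. It was read by 13 probe sets above the floor, of which 10 were higher at both levels, 6 were past 2-fold at 10 µM and 6 were called higher by themselves, with changes from 0.73 to 1.2. The range at 10 µM was -0.11 to 1.37. Of the 13, 10 carry the suffix _x_at or _s_at, and without these CFLAR changed by -0.13 and was not called. CFLAR is a known target of NF-kB, and the window upstream of 1 of its 4 annotated starts, which holds the kappaB-like match in capitals 97 to 88 bases upstream, is shown for comparison with PMAIP1.
CFLAR, chr2:201118466-201118715, plus strand, GRCh38.p14, RefSeq: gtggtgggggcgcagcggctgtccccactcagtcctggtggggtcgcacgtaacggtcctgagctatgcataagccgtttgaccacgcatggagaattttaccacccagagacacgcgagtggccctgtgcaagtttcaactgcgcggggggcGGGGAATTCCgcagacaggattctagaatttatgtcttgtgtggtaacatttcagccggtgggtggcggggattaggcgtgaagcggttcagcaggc

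The inhibitors of apoptosis were not called in the Twist line by their brightest probe sets. XIAP, which binds caspases directly and is countered by DIABLO, had 11.09, 10.38 and 10.59 in the Twist line and 10.60, 10.89 and 11.32 in the control line, a change of -0.61 (adjusted p = 0.0815). Of its 7 probe sets, 5 were lower at both levels, and 228363_at and 225859_at fell by 0.90 and 0.64 when tested by themselves, whereas the dim 206536_s_at rose by 0.99 (adjusted p = 0.0271). BIRC2 had changes of 0.16 and 0.14 at the 2 levels. BIRC5 (survivin), which also acts in mitosis, had changes of 0 and 0.05, although its probe set 202095_s_at rose by 0.76 (adjusted p = 0.0136, tested by itself).

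**Figure D3:**
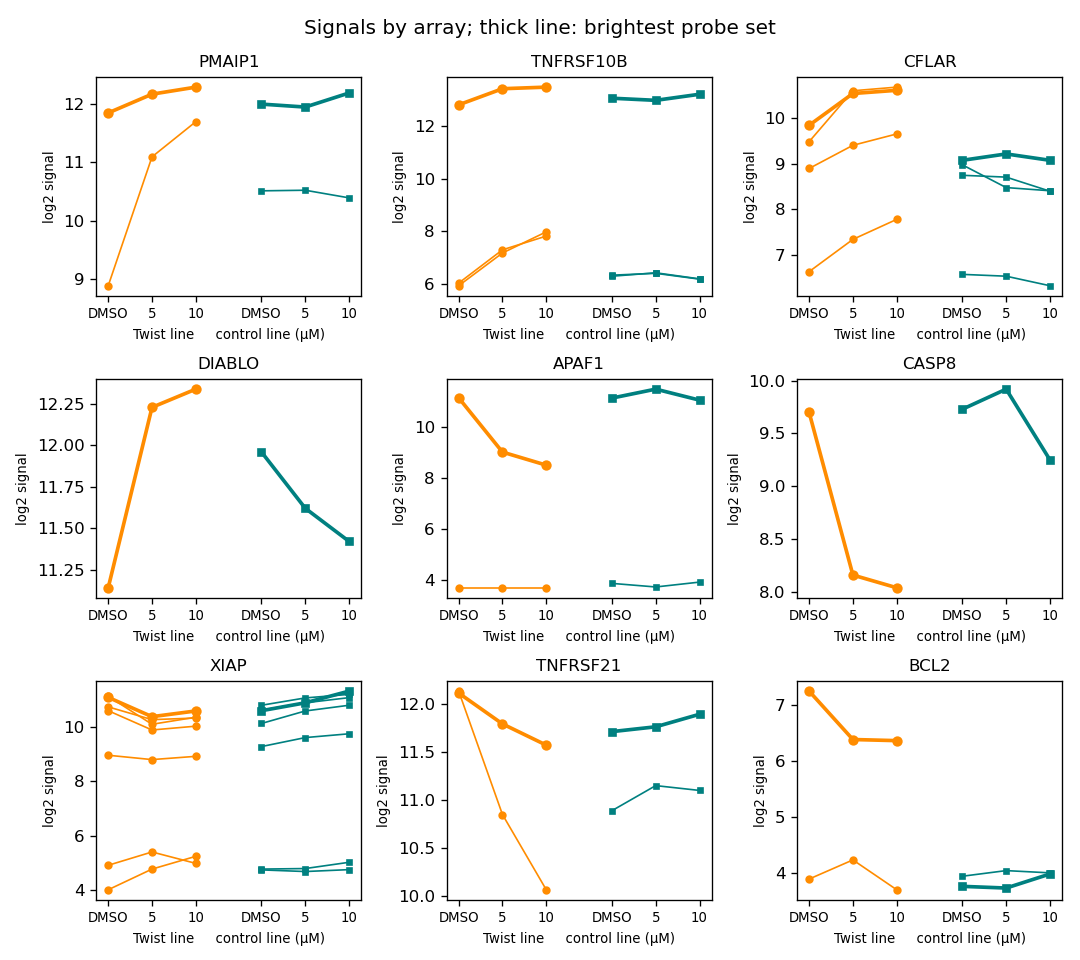
Log2 signals of 9 genes on each array, with the Twist line in orange and the control line in teal, over DMSO, 5 µM and 10 µM; the thick line is the brightest probe set, thin lines are the other probe sets above the floor (for CFLAR the next 3 by brightness). PMAIP1, TNFRSF10B and TNFRSF21 have probe sets that differ in the size of the change, while APAF1 and CASP8 are lower on the Twist arrays with Cmp302 than on the other 4.

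With a gene counted when any of its probe sets was called by itself, 10 regulators rose in the Twist line, against 21.3% of all genes, and 11 fell, against 22.9%. XIAP was in both groups. The genes added to the higher side were PMAIP1, BCL2L11, BIRC5 and XIAP, and those added to the lower side were CASP1, CASP2, CASP6, FAS, TNFRSF21 and XIAP. This count was chosen after seeing the data. By the interaction, 7 regulators had a probe set called in the higher direction, against 16.1% of all genes, and 8 in the lower, against 17%. Past 2-fold by any probe set there were 4 higher and 4 lower at 5 µM, against 7.39% and 8.34%, and 7 higher and 7 lower at 10 µM, against 13.5% and 13.8%. Between single arrays, the brightest probe sets were past 2-fold for 1 higher and 2 lower of 33 genes at 5 µM, where 4.26% and 5.01% of all genes were, and for the same 3 genes (DIABLO higher, APAF1 and CASP8 lower) at 10 µM, where 8.04% and 8.46% were. No regulator differed past 2-fold between 10 and 5 µM in the Twist line, where 0.593% and 0.508% of all genes did. The widest change between the levels was that of BCL2L1, at -0.61.

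**Figure D4:**
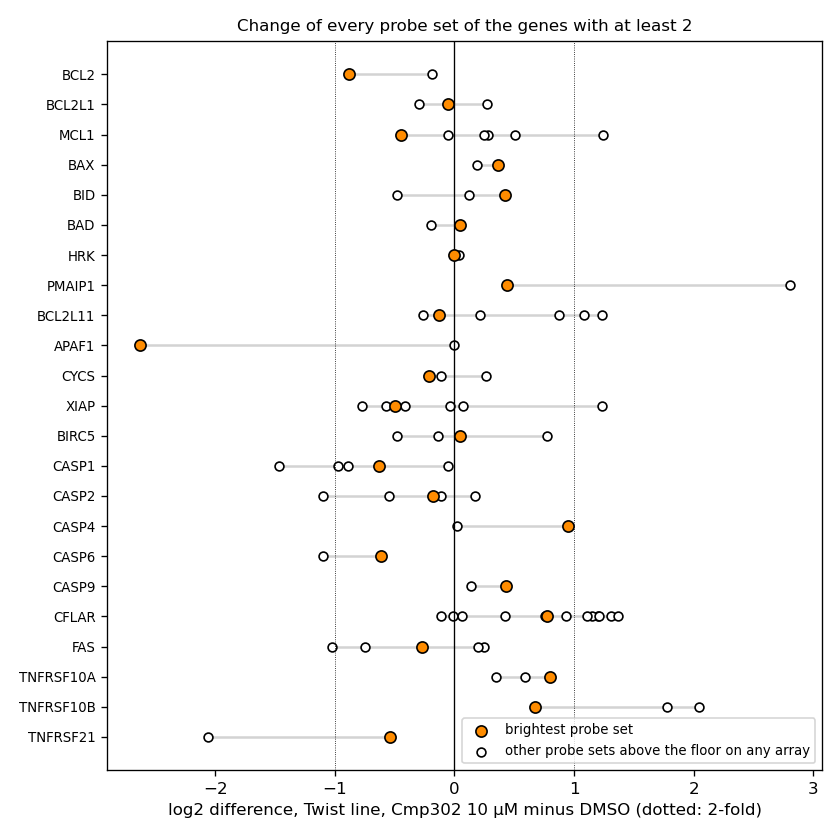
Log2 change of the Twist line at 10 µM Cmp302 minus DMSO for every probe set of the genes with at least 2 probe sets above the floor; filled points are the brightest probe set and open points the others, and dotted lines mark 2-fold. PMAIP1 spans 0.44 to 2.80 and TNFRSF10B 0.67 to 2.04, CASP1 lies below 0 throughout, and XIAP and MCL1 spread over both sides.

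In the control line, the same comparison called 0 of the 34 regulators, as it called 0% of all tested genes in either direction by limma. At an unadjusted p under 0.05, 5 regulators (BAX, CASP4, DIABLO, FAS and HRK) and 8.78% of all genes passed. No regulator was past 2-fold at 5 µM, where 0.0585% of genes were higher and 0.0668% lower, at 10 µM (0.2% and 0.259%) or between the levels (0.0418% and 0.092%). The largest changes at 10 µM were -0.76 for BAX and 0.73 for XIAP. The 3′ to middle contrast went the opposite way in the lines, lower with Cmp302 in the Twist line and higher with it in the control line. Of the 11 regulators called in the Twist line, 7 had a change of the opposite sign in the control line at 10 µM (BCL2, MCL1, BAK1, DIABLO, CASP4, TNFRSF10A and TNFRSF10D), or 63.6%, against 80.4% of all 4164 genes called there. The part of the contrast in these opposite changes was not tested.

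The difference in response between the lines was tested by the interaction. Of the 34 genes, 3 responded more in the higher direction in the Twist line (DIABLO, CASP4 and TNFRSF10A), against 12.5% of all genes, and 6 more in the lower direction (APAF1, XIAP, BCL2, TNFRSF10D, MCL1 and FAS), against 13.9%. The widest were APAF1, with -2.52 ± 0.392 (adjusted p = 0.018), and DIABLO, with 1.58 ± 0.191 (adjusted p = 0.0175). FAS lost its call in 6 of 8 alternatives that kept all arrays and XIAP in 5 of 8, and none of the 9 kept its call with the levels coded as a linear trend or with no filter. For DIABLO, CASP4, XIAP and FAS part of the difference came from the control line, where the changes were -0.43, -0.43, 0.51 and 0.31 and were not called. CASP8 (-1.46, adjusted p = 0.0549), CFLAR (0.66, 0.0778), BAK1 (0.70, 0.072) and TNFRSF10B (0.60, 0.0641) changed in the Twist line but missed the threshold for a difference between the lines. Among probe sets tested by themselves, 204285_s_at of PMAIP1 had an interaction of 2.55 (adjusted p = 0.0228).

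**Figure D5:**
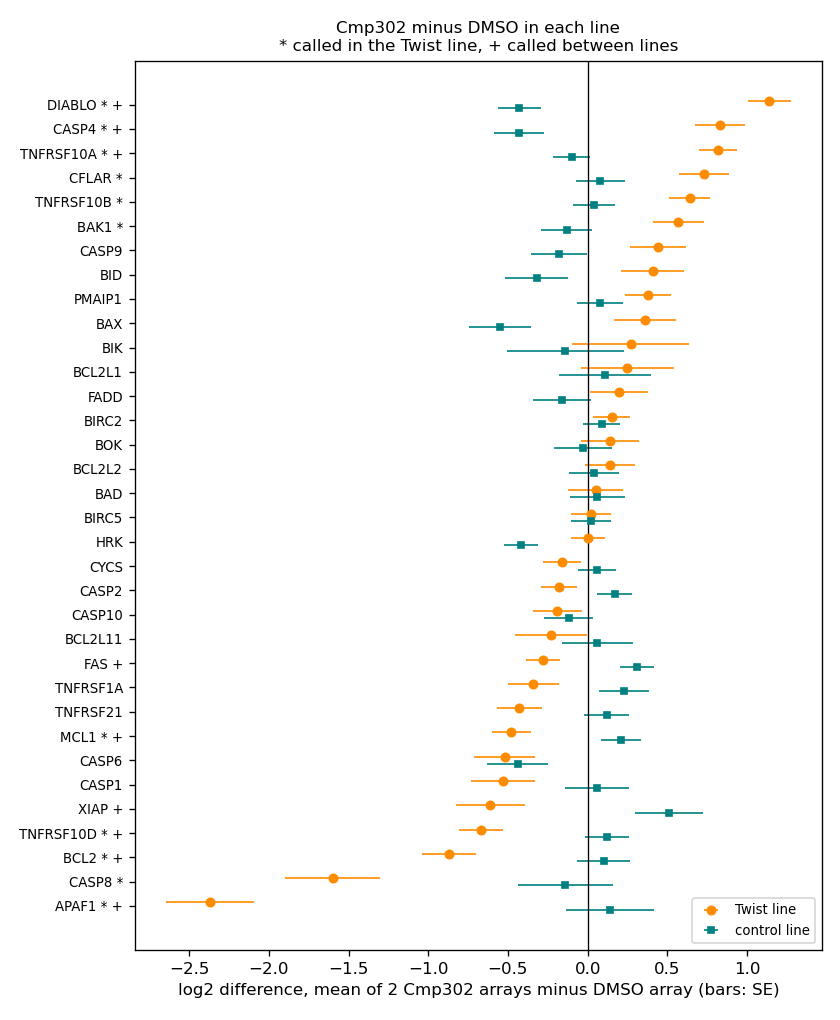
Fitted log2 difference of Cmp302 minus DMSO for the 34 tested genes, with the Twist line as orange circles and the control line as teal squares; each point is the mean of 2 Cmp302 arrays minus 1 DMSO array, and bars are standard errors. DIABLO (1.14) and APAF1 (-2.37) mark the ends in the Twist line, while the control-line points lie between -0.55 and 0.51.

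Other genes of the same pathways were counted beside these. Of 30 further genes of the apoptosis machinery 25 were read and 19 tested. Between the lines 1 was higher and 5 were lower, against 13.7% and 14.9% of all genes, among them TNFSF10, which encodes the ligand TRAIL, at the floor on the 3 Twist arrays and at 7.21, 7.51 and 8.45 in the control line (-4.01 against the floor, with no test given because TNFSF10 passed the filter only through the control line), and MLKL, the effector of necroptosis (-1.65 ± 0.197, adjusted p = 0.00257). Under Cmp302 in the Twist line 2 were called higher, against 15.5% of all genes, and 2 lower, against 17.9%. DAXX rose by 0.99, DFFB, the nuclease of apoptotic DNA cleavage, fell by 1.01 and BNIP3 fell by 0.60. TRAF1 differed by 0.72 against the floor and passed the filter only through the Twist arrays with Cmp302.

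Stress factors that act upstream of some of the regulators also rose. DDIT3, encoding CHOP, had 6.16, 11.44 and 11.96 in the Twist line and 5.26, 5.62 and 5.38 in the control line, and rose by 5.54 ± 0.283 (adjusted p = 0.00747). ATF4 had 12.68, 13.76 and 13.78 in the Twist line and 13.50, 13.30 and 13.31 in the control line, and rose by 1.09 ± 0.0936 (adjusted p = 0.011). Against 15.5% of all genes higher and 17.9% lower, 4 of the 5 tested stress factors rose in the Twist line, and all 6 NF-kB targets did, with changes from 1.68 to 4.98. IL6, among the 6, lay above the floor on 3 arrays only, those of the Twist line. It passed the filter only through the line where it is high, so its call adds no support. Of 9 p53 targets, 3 rose and 1 fell. Of 7 tested mitosis genes, 1 rose and 3 fell.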

How the data were processed

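Total RNA of 6 samples was hybridised to Affymetrix U133 Plus arrays. The values deposited were taken as log2 signals from their range, since the labels name no unit. Per the submitters' processing notes GCOS 1.2 was used; background correction, summarisation and normalisation are not given in the sources used here. From these values, 62 control probe sets were left out, each array was shifted to a median log2 ratio of 0 against the mean array (offsets -0.03 to 0.01), and signals under 3.71, the median of all values, were set to that floor. Gene names came from GEO's platform annotation, with Entrez numbers matched to RefSeq for GRCh38.p14. A total of 41091 probe sets had 1 symbol, 1801 had several and 11721 none, and only the first were used. Where a gene had several, its brightest probe set by the mean over arrays was read.

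Tests used limma 3.58.1 in R 4.3.3 (eBayes with the signal trend, two-sided, Benjamini-Hochberg over the 12478 genes that exceeded the floor on 2 or more arrays). The fits were tested on simulated data with 200 changed genes: a change of 2 log2 units was recovered for 52.5% between lines, 76.5% for Cmp302 in the Twist line, 79% in the control line and 58.5% in the interaction, and a change of 1 for 0% in each. In these data 1934 genes were called higher and 2230 lower in the Twist line, some with changes under 1 log2 unit, so these percentages do not carry over to them. The precision is limited by the number of arrays. The members, lists and tests were chosen with earlier results of these data known, and the tests of each probe set and the counts over any probe set after seeing these values. Every member past 2-fold or called by its brightest probe set was named with its values, and of other lists at most the 4 with the widest change, plus DDIT3 and ATF4. Alternatives were the deposited scaling, quantile normalization, other floors, the median over probe sets, no _x_at and _s_at probe sets, no filter, linear levels, and leaving out arrays.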

Additional observations from a re-analysis of the deposited data

Results flagged for a closer look

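For 9 regulators the change with Cmp302 differed between the lines by the interaction test over all 12478 genes, at an adjusted p under 0.05 from limma. The values are the response in the Twist line minus that in the control line, on the log2 scale. DIABLO, the mitochondrial antagonist of caspase inhibitors, differed by 1.58, CASP4 by 1.27 and the TRAIL receptor TNFRSF10A by 0.93. APAF1, the scaffold of the apoptosome, differed by -2.52, the caspase inhibitor XIAP by -1.12 and BCL2 by -0.97. The decoy receptor TNFRSF10D differed by -0.79, MCL1 by -0.69 and FAS by -0.58. The adjusted p of these genes lay between 0.0175 for DIABLO and 0.048 for XIAP. FAS was not called in 6 of 8 alternatives that kept all arrays, and XIAP in 5 of 8, the deposited scaling among them. With levels coded 0, 1 and 2, or with no filter, none of the 9 was called. The contrast between 3′ and middle control probe sets, which was 0.95, 0.36 and 0.45 on the Twist arrays and 0.28, 0.45 and 0.84 on the control-line arrays at DMSO, 5 µM and 10 µM, moved in opposite directions in the lines too, and its part in these differences was not tested.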

How the results depend on the processing

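No paired analysis was possible because there is 1 array per group, so replicate numbers name samples only. Cmp302 calls rested on all 4 Cmp302 arrays: without any one of them 0 regulators were called higher and 0 lower for the Twist line and for the interaction, and 0 genes of the whole array. Between the lines, leaving out 1 treatment pair gave 1 to 7 genes higher and 4 to 12 lower, the most without the DMSO pair, where the whole array had 3561 higher and 3682 lower, beside 1705 and 1854. With no filter 1 was higher and 4 lower between the lines, 1 and 0 for Cmp302 in the Twist line, 0 and 1 in the control line, and for the interaction 1 and 0. The genes of the whole array called in the Twist line then numbered 94 higher and 185 lower, beside 1934 and 2230. Between the lines they numbered 833 and 1242, and in the control line 3 and 62. With levels coded 0, 1 and 2 the Twist line had 2 higher and 2 lower and the interaction 0 and 0, with 91 and 99 genes of the whole array in the interaction, beside 1554 and 1739. With the median over probe sets 0 were higher and 4 lower between the lines, beside 1727 and 1925 genes of the whole array, and 1 was lower in the interaction. Without _x_at and _s_at probe sets 1 was higher between the lines, beside 1464 genes of the whole array. In that setting 3 were higher in the Twist line, and 1 was higher and 3 lower in the interaction. A floor at the 35th percentile gave 3 lower in the interaction. Tested by itself, any probe set called 10 regulators higher and 11 lower in the Twist line, against 21.3% and 22.9% of all genes. In the interaction it called 7 higher, against 16.1%. The other whole-array numbers here are counts of genes, and the number of genes tested changes with the filter, the floor and the probe sets used. Counts of regulators with no whole-array number beside them carry no share over all genes and describe the regulators only.

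Past 2-fold, the lines differed in 3 genes under DMSO and 4 at 5 µM by the median over probe sets, in 5 at 5 µM and 4 at 10 µM without _x_at and _s_at probe sets, and by any probe set in 12 under DMSO, where 16.2% of all genes were higher and 17.4% lower, and in 16 at 10 µM, where 20.7% and 18.2% were. In the Twist line the count was 1 at each level without _x_at and _s_at probe sets, 5 at 10 µM by the median, and 8 at 5 µM and 14 at 10 µM by any probe set. In the control line it was 1 at 10 µM against DMSO and 1 against 5 µM, both without _x_at and _s_at probe sets and by any probe set. By any probe set 0.884% of all genes were higher at 10 µM than under DMSO, and 0.259% were lower than at 5 µM. Counts by the median or without _x_at and _s_at probe sets carry no share over all genes and describe the regulators only.

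The sign turned for a few genes. By the median over probe sets, MCL1 changed by 0.10 in the Twist line and 0.13 in the interaction, and APAF1 by 0.04 in the interaction. Without _x_at and _s_at probe sets, MCL1 changed by 0.25 in the Twist line and 0.21 in the interaction, CASP4 by -0.12 and -1.07, and CFLAR by -0.13 in the Twist line, and CASP4 differed by 0.30 between the lines under DMSO. BIK was called under each of its 7 alternatives that kept all arrays. The cause of these shifts was not tested, and some alternatives themselves bring a smaller number of arrays or probe sets. A change of 1 log2 unit was not recovered in simulated data with 200 changed genes. Far more genes were called in the Twist line, smaller changes among them, so the simulation does not give the recovery in these data. A regulator that was not called may still have changed.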
